A study of Mus musculus with 16 samples.

Results

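The genes described are 10 genes of de novo lipogenesis, the synthesis of fatty acids from carbohydrate: the enzymes Acly, Acaca, Acacb, Fasn, Elovl6, Scd1, Scd2 and Me1, and the transcription factors Mlxipl and Srebf1. They were chosen by name, with earlier results of these data known, out of 22911 genes with a symbol on the array. Each was found through the RefSeq accession of its probes and is represented by the brightest of them. The array holds 17 probes for these genes, and all 17 were well above background on all 16 arrays, so that no member was lost to a filter on dim signals. RNA of brown adipose tissue (BAT) and gonadal white adipose tissue (gWAT) had been hybridized to 1-colour Agilent arrays, with 4 arrays for each tissue and genotype. The mice were males of the strain given as C57BL/6NCrSlc, kept at 23 °C on normal chow. Adipo-Pgam1 KO mice carry Adipoq-Cre and floxed Pgam1, the gene of the glycolytic enzyme phosphoglycerate mutase, and the controls, labelled as littermate wild-type mice, carry floxed Pgam1 without Cre, by the study's methods. Cre under the adiponectin promoter acts in adipocytes, whereas the other cells of a fat pad keep the gene. Animals were 16 weeks old, except that replicate 4 of Adipo-Pgam1 KO was 14 weeks old in both tissues.

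In lipogenesis, citrate leaves the mitochondrion and is cut by Acly to acetyl-CoA, which Acaca and Acacb carboxylate to malonyl-CoA. Fasn builds palmitate from both, Elovl6 lengthens it, and the stearoyl-CoA desaturases Scd1 and Scd2 put in a double bond. Me1 supplies NADPH for the synthesis. Mlxipl, also called ChREBP, raises transcription of these genes when glucose is plentiful, and Srebf1, whose SREBP1c form responds to insulin, does so through sterol elements. In adipose tissue the pathway runs both in white fat, which stores its product, and in brown fat, which burns it.

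Levels are given as log2 of the signal over the 75th percentile of the same array, so that a difference of 1 is a 2-fold difference. That percentile was 401.3 to 451.3 in BAT controls and 650.2 to 916.2 in BAT of Adipo-Pgam1 KO mice. It was 570.3 to 855.3 in gWAT controls and 656.8 to 831.3 in gWAT labelled Adipo-Pgam1 KO, whose arrays are called KO-labelled here. The arrays lay on 3 slides. Of the BAT arrays, control replicates 1 to 3 were on slide 1, and control replicate 4 shared slide 2 with those of Adipo-Pgam1 KO mice. Of the gWAT arrays, control replicates 1 to 3 were on slide 2, and control replicate 4 shared slide 3 with the KO-labelled arrays. Pgam1 itself was lower in BAT of Adipo-Pgam1 KO mice by a log2 change of -1.74 (limma, adjusted p = 1.11e-05), but higher by 0.95 (adjusted p = 0.0139) in the KO-labelled gWAT arrays. Every direction in gWAT is therefore given by label. Whether a Pgam1 probe lies in the deleted part is not known here, and whether the gWAT labels were exchanged was not tested. The brown adipocyte markers went with the tissue labels. The 7 markers summed to between 3402 and 3678 in BAT controls, in units of the 75th percentile, and to between 23.0 and 54.1 in gWAT controls, where Zic1 and Ucp1 were not well above background on any array.

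Promoters are shown for Fasn and Acly, as the central synthase and the enzyme that moved furthest in gWAT, and for both annotated starts of Mlxipl, whose probes disagreed in gWAT. Each run gives, 5′ to 3′, the 250 bases before a start site, from RefSeq's annotation of GRCm38.p6, and capitals mark motifs. The motifs searched, on both strands, were the sterol element TCACNCCAC, the E-box CACGTG and the CCAAT box CCAAT. The windows are Fasn at chr11:120824548-120824797 on the minus strand, Acly at chr11:100528001-100528250 on the minus strand, Mlxipl at chr5:135089640-135089889 on the plus strand, and Mlxipl at chr5:135106641-135106890 on the plus strand, 17001 bases further along the gene.
Fasn: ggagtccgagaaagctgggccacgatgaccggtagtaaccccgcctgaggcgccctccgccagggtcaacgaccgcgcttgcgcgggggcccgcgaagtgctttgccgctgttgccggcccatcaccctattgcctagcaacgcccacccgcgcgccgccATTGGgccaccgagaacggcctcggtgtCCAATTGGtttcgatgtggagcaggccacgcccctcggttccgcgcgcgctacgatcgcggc
Acly: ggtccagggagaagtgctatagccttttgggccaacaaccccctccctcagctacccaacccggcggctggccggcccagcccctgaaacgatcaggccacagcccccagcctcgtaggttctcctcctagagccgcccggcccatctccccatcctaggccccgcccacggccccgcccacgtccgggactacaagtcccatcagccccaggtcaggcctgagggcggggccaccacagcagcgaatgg
Mlxipl, upstream start: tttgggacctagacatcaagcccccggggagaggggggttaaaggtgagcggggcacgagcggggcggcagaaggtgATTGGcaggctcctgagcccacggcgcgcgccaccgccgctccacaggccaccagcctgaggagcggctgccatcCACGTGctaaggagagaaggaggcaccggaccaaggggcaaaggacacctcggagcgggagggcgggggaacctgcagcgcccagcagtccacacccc
Mlxipl, downstream start: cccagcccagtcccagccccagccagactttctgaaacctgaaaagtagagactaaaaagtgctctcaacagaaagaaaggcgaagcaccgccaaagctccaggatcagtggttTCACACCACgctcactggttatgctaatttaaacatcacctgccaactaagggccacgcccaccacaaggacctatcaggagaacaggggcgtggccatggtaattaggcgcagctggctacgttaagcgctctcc
The Fasn window holds 3 CCAAT boxes, which begin at -90, -62 and -59 from the start, the last pair sharing bases on opposite strands. The upstream Mlxipl window holds an E-box at -98 and a CCAAT box at -173. The downstream Mlxipl window holds a sterol element at -136. No searched motif lies in the Acly window. Over all 32851 windows of this length, 1.05% hold the sterol element, 6.02% the E-box and 33.8% a CCAAT box. Windows were found for 8 of the 10 members, 12 in all, of which 1 holds the sterol element, 1 the E-box and 6 a CCAAT box. Scd1 and Scd2 have no window. A match is a run of letters and was not tested as a binding site.

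The lipogenic enzymes went different ways in the 2 tissues. In BAT of Adipo-Pgam1 KO mice, Acaca, Acacb, Fasn, Elovl6 and Scd1 fell and Scd2 rose, whereas in the KO-labelled gWAT arrays Acly, Acaca, Elovl6, Scd2, Me1, Mlxipl and Srebf1 rose and no member fell. In BAT, 6 of 10 members passed an adjusted p of 0.05 in limma, 5 lower and 1 higher, against 61.5% of all genes tested (34% lower, 27.5% higher). The genotypes did not overlap for the same number of members, 5 lower and 1 higher, against 57.1% of all genes (31.9% lower, 25.1% higher). The share of members past the threshold was thus close to that of all genes. In gWAT, 7 of 10 passed, all higher, against 17.8% of all genes tested (9.99% higher, 7.85% lower). Their groups did not overlap for 7 members, all higher, against 24.1% of all genes (13.3% higher, 10.8% lower). The median log2 change of the members was -0.35 in BAT, where that of all genes was -0.081, and 1.54 in gWAT, where that of all genes was 0.047. In the tests of single genes, the difference between the changes (gWAT minus BAT) passed for 9 of 10 members, all with the more positive change in gWAT, against 48.3% of all genes (27.4% more positive in gWAT, 21% in BAT). Scd2 was the exception.

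**Figure D1:**
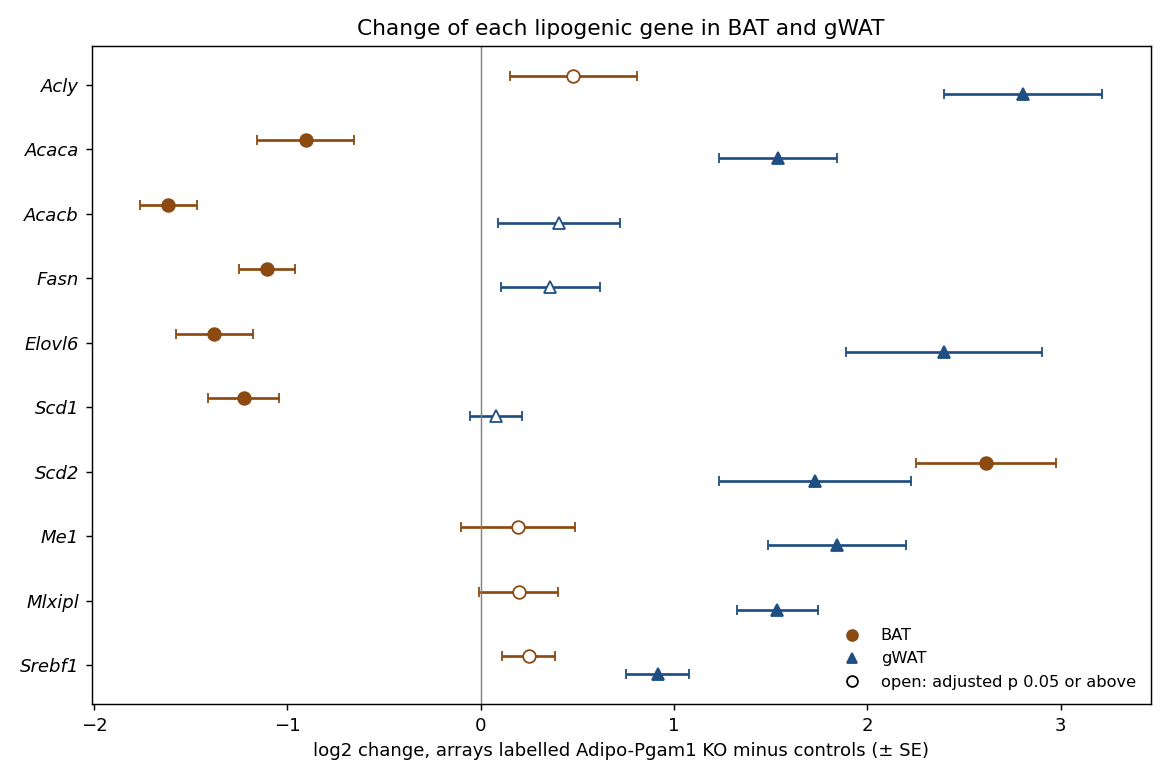
Log2 change of each lipogenic gene, arrays labelled Adipo-Pgam1 KO minus littermate controls (horizontal axis, ± SE, 4 arrays against 4), in BAT (circles) and gWAT (triangles). Filled symbols passed an adjusted p of 0.05 in limma, and in BAT all of the filled symbols but Scd2 lie below 0, while in gWAT all lie above it.

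Cell type markers moved with these changes. In BAT, the summed level of 6 adipocyte markers was 2398 to 2615 in controls and 806 to 1147 in Adipo-Pgam1 KO mice, and that of the 7 brown adipocyte markers was 1148 to 1825 in the latter. Over the same arrays, 6 macrophage markers summed to 26.2 to 35.6 in controls and 77.5 to 116 in Adipo-Pgam1 KO mice, and 3 fibroblast markers to 92.4 to 104 and 129 to 179. In gWAT, the adipocyte markers overlapped (1752 to 2796 in controls, 1660 to 2180 in the KO-labelled arrays). So did the macrophage markers (58.6 to 78.6 and 59.4 to 167) and the fibroblast markers (274 to 321 and 236 to 328). Among these lists only Adipoq (log2 change -0.89, limma, adjusted p = 0.0235) and Cd68 (1.48, adjusted p = 0.0365) passed there. The brown adipocyte markers summed to 111 to 288 in the KO-labelled arrays, mostly Cidea and Cox8b, with Zic1 still not well above background on any array. Of 6 muscle markers, only Acta1 and Tnnt3 stood well above background on every gWAT array, and the sum was 2.75 to 24.2 in controls and 29.7 to 57.8 in the KO-labelled arrays. Acta1 was higher there by 2.20 but did not pass the threshold (limma, adjusted p = 0.0503). Tnnt3 changed by -0.63, and the means of Myh1, Myh2 and Myh4 were lower. Ckm, Myh1 and Myh4 were not well above background on any KO-labelled gWAT array. In BAT the muscle sum was 0.252 to 0.888 in controls and 0.789 to 76.6 (median 7.38) in Adipo-Pgam1 KO mice, and Acta1 and Tnnt3 were again the markers well above background on every array. The part of these cell types in the results was not tested, and in bulk tissue fewer cells of a type and less RNA per cell cannot be told apart.

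Acly, at the head of the pathway, did not pass the threshold in BAT and had the largest rise of the members in gWAT. The BAT controls read 6.97, 7.64, 8.43 and 8.47, and the Adipo-Pgam1 KO arrays 8.64, 8.32, 8.03 and 8.44. Control replicates 1 and 2 lay below every other BAT array, and the remaining controls lay among the Adipo-Pgam1 KO arrays. The log2 change was 0.48 (SE 0.33, adjusted p = 0.230). It depended on the scaling: Acly passed as a rise under quantile normalization (1.08, adjusted p = 0.0126) and spike-in scaling (0.99, adjusted p = 0.0246). Under Actb and Rplp0 scaling the change was -0.11. In gWAT, controls read 5.51, 4.98, 7.0 and 6.50 and the KO-labelled arrays 9.07, 8.95, 8.79 and 8.40. The groups did not overlap, and Acly rose by 2.80 (SE 0.41, adjusted p = 0.00509), a 6.99-fold difference. On its other probe the BAT difference was 0.83 and the gWAT difference 3.54.

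Of the acetyl-CoA carboxylases, Acaca passed the threshold in both tissues and Acacb in BAT. Acaca, the cytosolic form whose malonyl-CoA feeds Fasn, read 8.21, 8.27, 8.96 and 8.98 in BAT controls and 7.99, 7.50, 7.25 and 8.05 in Adipo-Pgam1 KO mice. All Adipo-Pgam1 KO arrays lay below all controls, with a change of -0.91 (SE 0.25, adjusted p = 0.0127). This call was lost under quantile normalization, which gives all arrays the same distribution (-0.34, adjusted p = 0.228), under spike-in scaling, which uses control RNAs added to each sample (-0.40, adjusted p = 0.161), and with the median over its 4 probes (-0.52, adjusted p = 0.104). In gWAT, Acaca read 6.36, 6.46, 7.56 and 7.59 in controls and 8.74, 8.55, 8.55 and 8.29 in the KO-labelled arrays. It rose by 1.54 (SE 0.31, adjusted p = 0.0143) with no overlap, and on its 3 other probes the difference was 1.81 to 2.26. Acacb, the form at the mitochondrial membrane whose malonyl-CoA restrains fatty acid import, read 7.17, 7.26, 7.52 and 7.12 in BAT controls. In BAT of Adipo-Pgam1 KO mice it read 5.67, 5.59, 5.38 and 5.97, a fall of 3.06-fold (log2 change -1.62, SE 0.15, adjusted p = 3.88e-05). No BAT array of one genotype came within the range of the other. The size depended on the probe: on the second Acacb probe the BAT difference was -0.60, and with the median over both it was -1.11. In gWAT, Acacb read 4.43, 5.18, 4.62 and 5.92 in controls and 5.50, 5.69, 5.53 and 5.06 in the KO-labelled arrays. These groups overlapped, the change of 0.41 (SE 0.31, adjusted p = 0.396) did not pass, and on the second Acacb probe the difference was -0.66.

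Fasn was among the brightest members in BAT, at 10.57, 10.67, 10.76 and 10.73 in controls and 9.57, 9.50, 9.27 and 9.97 in Adipo-Pgam1 KO mice. The groups were apart, and the change was -1.10 (SE 0.15, adjusted p = 2.48e-04), or 2.15-fold lower. The size of this fall depended on the scaling: under quantile normalization it was -0.082 (adjusted p = 0.426), and -0.12 (adjusted p = 0.194) when normexp background correction was added, whereas under spike-in scaling it was -0.60 (adjusted p = 0.00172). In gWAT, Fasn read 9.26, 8.70, 9.87 and 9.82 in controls and 9.83, 9.95, 9.69 and 9.61 in the KO-labelled arrays. Control replicates 3 and 4 lay within the range of the KO-labelled arrays, and the change of 0.36 (SE 0.26, adjusted p = 0.352) did not pass.

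Elovl6, the elongase that takes palmitate to stearate, had the largest difference between the tissues. BAT controls read 6.60, 6.70, 7.04 and 7.13, against 5.50, 5.34, 5.15 and 5.97 in Adipo-Pgam1 KO mice. It fell by 1.38 on the log2 scale (log2 change -1.38, SE 0.20, adjusted p = 3.78e-04) with no overlap. In gWAT, controls read 1.89, 1.42, 4.09 and 2.66, and the KO-labelled arrays 5.24, 4.70, 4.72 and 4.99. Every KO-labelled array lay above control replicate 3, the highest control, and Elovl6 rose by 2.40 (SE 0.51, adjusted p = 0.0166), or 5.27-fold. Without replicate 1 of the KO-labelled arrays the adjusted p was 0.0501. The difference between its changes was 3.77 (interaction in limma, SE 0.59, adjusted p = 1.64e-04), larger than that of any other member.

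The desaturases Scd1 and Scd2 carry out the same reaction, yet they moved apart in BAT. Scd1, the main form in adipose tissue, read 9.75, 9.50, 10.11 and 9.87 in BAT controls and 8.61, 8.35, 8.36 and 9.02 in Adipo-Pgam1 KO mice. All Adipo-Pgam1 KO arrays were lower, with a change of -1.23 (SE 0.19, adjusted p = 5.09e-04) that shrank to -0.38 (adjusted p = 0.0817) under quantile normalization. Scd2 read 2.62, 2.70, 4.26 and 3.20 in BAT controls and 6.33, 5.71, 5.42 and 5.76 in Adipo-Pgam1 KO mice. It rose by 2.61 (SE 0.36, adjusted p = 3.14e-04), or 6.12-fold, with no overlap, and was the only member to rise past the threshold in BAT. In gWAT, Scd1 read 8.74, 8.95, 9.16 and 9.15 in controls and 9.07, 9.13, 9.14 and 8.96 in the KO-labelled arrays. The 8 arrays lay within a narrow band, and the change was 0.079 (SE 0.13, adjusted p = 0.712). Scd2 in gWAT read 4.48, 2.83, 5.60 and 4.01 in controls and 6.38, 5.73, 5.86 and 5.88 in the KO-labelled arrays. The groups stood apart by a small margin, control replicate 3 being close to the KO-labelled arrays, and the rise of 1.73 (SE 0.50, adjusted p = 0.0447) lost its call in 13 of 22 alternatives. Among these were the fits without control replicates 1, 2 or 4 and without any one of the KO-labelled arrays, with changes of 1.27 to 1.81 and adjusted p-values up to 0.112.

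Within an array, the log2 ratio of the Scd1 to the Scd2 probe does not depend on how arrays are scaled to each other by a constant. In BAT it was 7.13, 6.81, 5.85 and 6.68 in controls and 2.28, 2.64, 2.93 and 3.25 in Adipo-Pgam1 KO mice. The ratio was thus lower in every Adipo-Pgam1 KO array, by a change of -3.84 (SE 0.34). By a two-sided exact permutation test p was 0.0286, which is the lowest value possible for 4 arrays against 4, and 0.0381 when adjusted over 4 ratio tests. In gWAT it was 4.26, 6.11, 3.56 and 5.14 in controls and 2.70, 3.40, 3.29 and 3.09 in the KO-labelled arrays, a change of -1.65 (SE 0.57, exact p = 0.0286, adjusted 0.0381). The gap to control replicate 3 was narrow, and under quantile normalization the gWAT groups overlapped (-1.44, exact p = 0.0857). Acaca over Acacb was 1.04, 1.01, 1.44 and 1.87 in BAT controls and 2.32, 1.91, 1.87 and 2.09 in Adipo-Pgam1 KO mice, a change of 0.71 (SE 0.23, exact p = 0.0286, adjusted 0.0381). That shift was small on slide 2, which holds control replicate 4 and all Adipo-Pgam1 KO arrays, where it was 0.18. In gWAT, Acaca over Acacb was 1.93, 1.28, 2.95 and 1.67 in controls and 3.25, 2.85, 3.02 and 3.23 in the KO-labelled arrays, a change of 1.13 (SE 0.37, exact p = 0.0571). These ratios show unequal change within a pair of related genes and not that either member was constant.

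**Figure D2:**
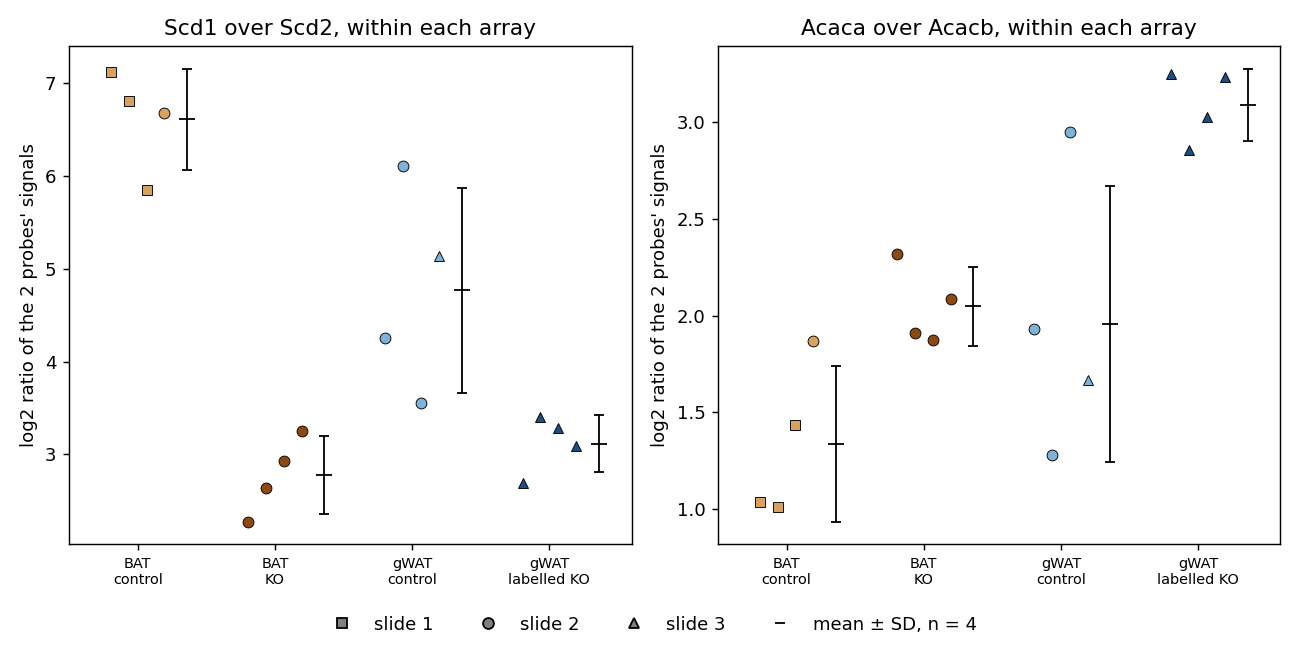
Log2 ratio within each array (vertical axis) of the Scd1 to the Scd2 probe (left) and of the Acaca to the Acacb probe (right), by tissue and genotype, with symbols for the 3 slides in replicate order and bars for the mean ± SD of 4 arrays. The Scd1 to Scd2 ratio of the BAT Adipo-Pgam1 KO arrays (2.28 to 3.25) lies below that of all BAT controls (5.85 to 7.13).

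Scd1 and Scd2 lie in a cluster on chromosome 19 together with Scd3 and Scd4, all within GRCm38.p6 positions 44203288 to 44407709 and in the order Scd3, Scd2, Scd4, Scd1. In BAT, Scd3 changed by -0.86 (SE 0.29, adjusted p = 0.0289) and Scd4 by -0.39 (SE 0.14, adjusted p = 0.0357), both against the rise of Scd2 and in the direction of Scd1. Each was read by its brightest probe, and the genotypes overlapped for both. Scd3 read 3.75 to 5.03 in BAT controls and 3.29 to 4.16 in Adipo-Pgam1 KO mice, and Scd4 1.97 to 2.48 and 1.68 to 2.06. In gWAT, Scd3 rose, as Scd2 did, by 1.27 (SE 0.18, adjusted p = 0.00498), with controls at 3.08 to 3.58 and the KO-labelled arrays at 4.24 to 4.88, whereas the difference for Scd4 was -0.25 (SE 0.15, adjusted p = 0.263). The 4 genes are close relatives, and signal shared between their probes was not tested.

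Me1, the cytosolic malic enzyme, read 6.22, 6.15, 6.87 and 7.40 in BAT controls and 7.30, 6.75, 6.49 and 6.88 in Adipo-Pgam1 KO mice. The genotypes overlapped, with a change of 0.20 (SE 0.29, adjusted p = 0.586). In gWAT, controls read 6.14, 5.74, 7.50 and 6.82, and the KO-labelled arrays 8.69, 8.57, 8.31 and 8.0. All KO-labelled arrays were higher, by 1.84 (SE 0.36, adjusted p = 0.0133), and on the second Me1 probe the difference was 2.06.

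**Figure D3:**
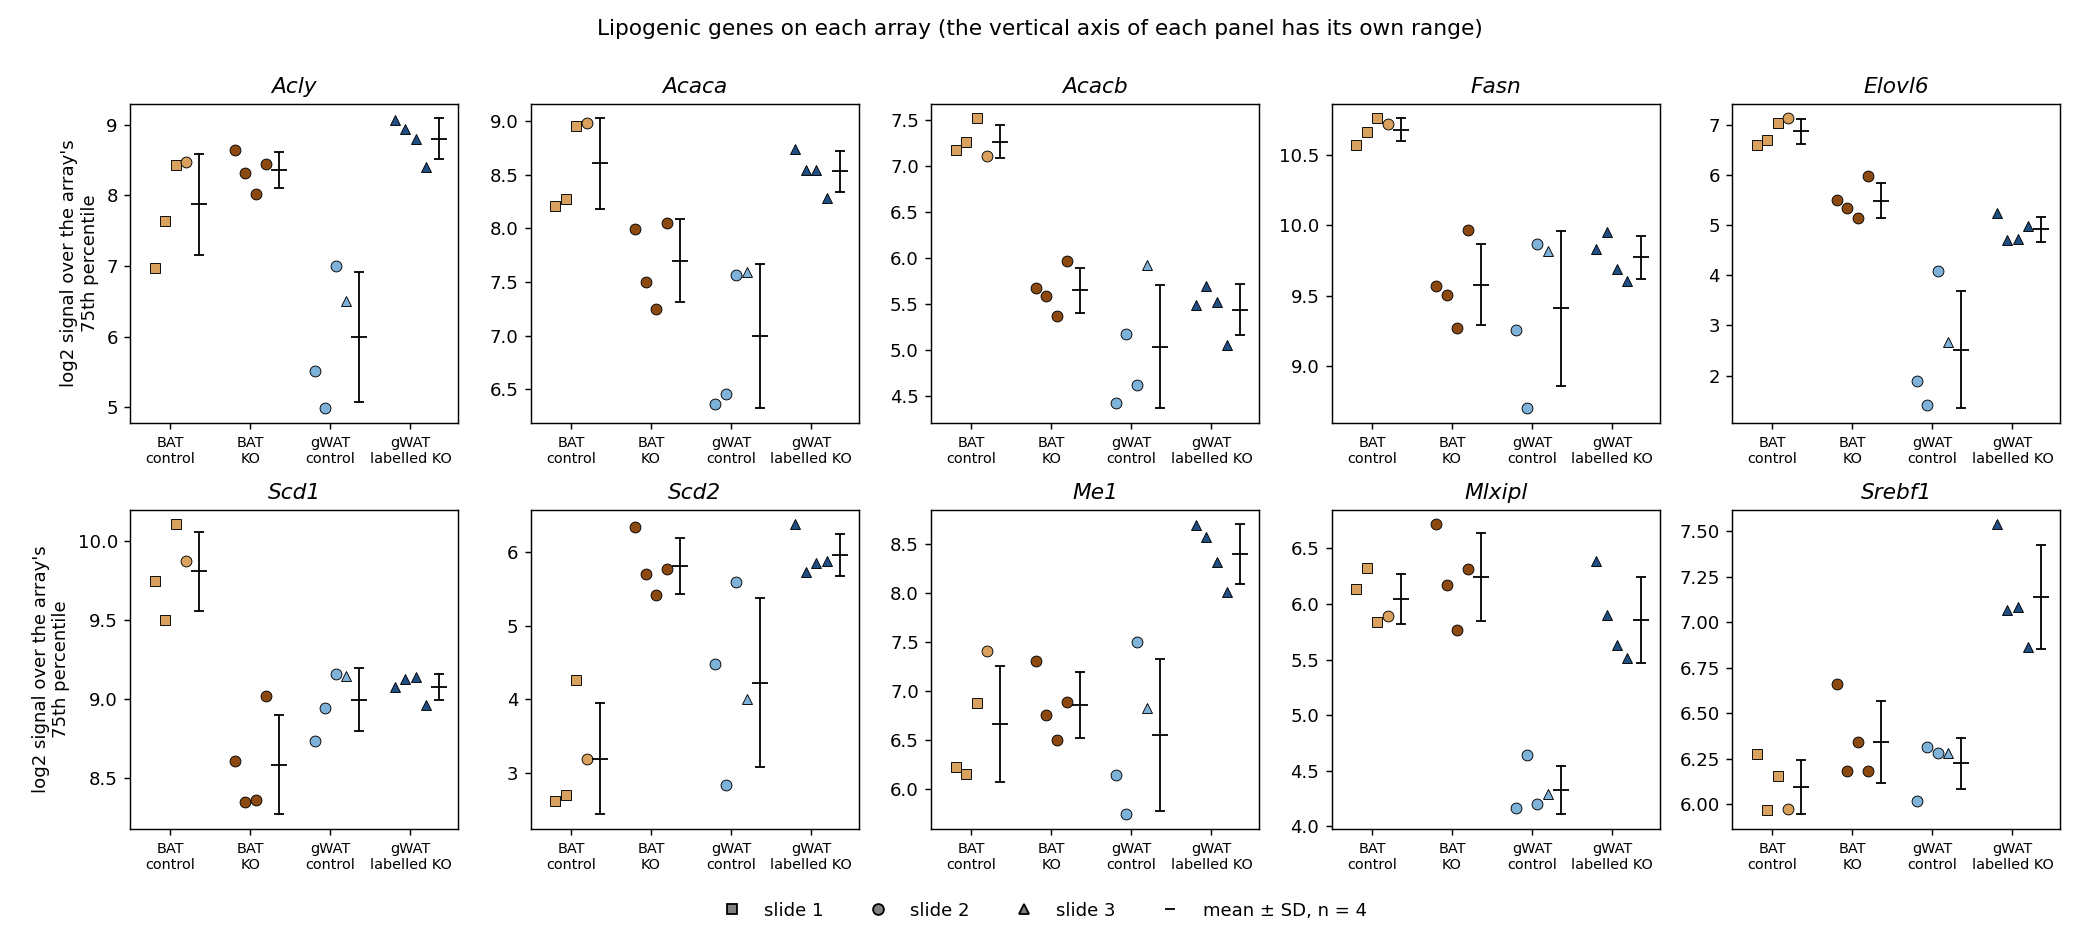
Log2 signal over the array's 75th percentile (vertical axis, with its own range in each panel) of the 10 lipogenic genes on each of the 16 arrays, by tissue and genotype, in replicate order. Symbol shapes give the 3 slides and bars the mean ± SD of 4 arrays, and the groups do not overlap for 6 genes in BAT and 7 in gWAT.

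Neither regulator passed the threshold in BAT. Mlxipl read 6.13, 6.32, 5.84 and 5.89 in BAT controls and 6.72, 6.17, 5.77 and 6.31 in Adipo-Pgam1 KO mice, with overlapping groups and a change of 0.20 (SE 0.20, adjusted p = 0.426). Srebf1 read 6.28, 5.97, 6.16 and 5.98 in BAT controls and 6.66, 6.18, 6.34 and 6.18 in Adipo-Pgam1 KO mice, a change of 0.25 (SE 0.14, adjusted p = 0.143). Both changes turned negative under Actb and Rplp0 scaling (-0.39 and -0.34) and passed it, as rises, under spike-in scaling (0.70 and 0.76). In gWAT both rose. Mlxipl read 4.16, 4.64, 4.20 and 4.29 in controls and 6.39, 5.90, 5.63 and 5.51 in the KO-labelled arrays, a rise of 1.53 (SE 0.21, adjusted p = 0.00384) with a wide gap between the groups. Srebf1 read 6.01, 6.31, 6.28 and 6.28 in controls and 7.54, 7.07, 7.08 and 6.86 in the KO-labelled arrays, a rise of 0.91 (SE 0.16, adjusted p = 0.0103), also without overlap. The dimmer Mlxipl probe went the other way in gWAT, at 1.91, 1.49, 1.48 and 0.78 in controls and 0.64, 0.42, 0.31 and 1.40 in the KO-labelled arrays. Its groups overlapped, and with the median over both Mlxipl probes the gWAT rise was 0.41 and did not pass (adjusted p = 0.137). Which transcripts the probes read is not known here, so the forms of ChREBP and of SREBP1 could not be told apart.

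Set beside each other in gWAT, Mlxipl (1.53), Acaca (1.54), Scd2 (1.73), Me1 (1.84), Elovl6 (2.40) and Acly (2.80) rose by more than Srebf1 (0.91). Acacb, Fasn and Scd1 stood at 0.41, 0.36 and 0.079 without passing. Under spike-in scaling, which moved the median of all genes in gWAT by 0.51, these genes passed as rises. Their changes were then 0.92 for Acacb, 0.87 for Fasn and 0.59 for Scd1 (limma, adjusted p = 0.0183, 0.0188 and 0.0236). Differences between members were not tested, and with the median over probes Mlxipl (0.41) stood below Srebf1 (0.91). In BAT, the enzymes that fell did so by log2 changes of -0.91 to -1.62, while the differences for both regulators, Acly and Me1 were 0.20 to 0.48 and did not pass. On their second probes, Me1 and Mlxipl differed by -0.18 and -0.14 in BAT and Acly by 0.83. Replicate 4 of Adipo-Pgam1 KO, from a younger animal in each tissue, was the highest of its BAT group for Acaca, Acacb, Fasn, Elovl6 and Scd1, and the lowest of its gWAT group for Acly, Acaca, Acacb, Fasn, Scd1, Me1, Mlxipl and Srebf1. Age was not tested. With any single BAT array left out, 6 members passed in each fit, against 7880 to 8713 of 14280 genes. With any single gWAT array left out, 5 to 7 members passed, against 1143 to 3237 of 14149 genes. By the methods' t-test 5 of 10 members and 1618 of 14149 genes passed in gWAT.

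The gWAT calls depended on the slide. With the slide as a fixed block, the gWAT change rests on control replicate 4 alone. By limma, 0 of 10 members then passed in gWAT, against 6 at an unadjusted p of 0.05. Of all genes, 184 of 14149 passed in that fit. The interaction passed for 3 members and for 3265 of 14820 genes. All 7 called members were nevertheless higher on the KO-labelled arrays than on that control of the same slide, by 2.30 for Acly, 2.25 for Elovl6, 1.95 for Scd2, 1.57 for Me1, 1.57 for Mlxipl, 0.94 for Acaca and 0.86 for Srebf1. Acacb, Fasn and Scd1 were lower than that control, by differences of -0.48, -0.048 and -0.070. With the slide as a random block, 7 members and 2403 of 14149 genes passed in gWAT. In BAT, 6 members and 6677 of 14280 genes passed with the slide as a fixed block.

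Between the tissues of control mice, 7 of 10 members were higher in BAT than in gWAT and none was lower past the threshold, against 66.4% of all genes tested (36% higher, 30.4% lower). Elovl6 differed most, by 4.35 (limma, SE 0.42, adjusted p = 4.20e-07), followed by Acacb with 2.23 (SE 0.26, adjusted p = 3.20e-06), Acly with 1.88 (SE 0.40, adjusted p = 7.99e-04) and Mlxipl with 1.72 (SE 0.22, adjusted p = 6.08e-06). Acaca was higher in BAT by 1.61, Fasn by 1.27 and Scd1 by 0.81. Under quantile normalization the difference was 0.30 for Fasn (adjusted p = 0.112) and -0.033 for Scd1 (adjusted p = 0.841). With normexp added it was 0.089 for Scd1 (adjusted p = 0.618). Scd2 stood lower in BAT by a difference of -1.04 that did not pass (adjusted p = 0.0654), and Me1 and Srebf1 differed by 0.11 and -0.13. With the slide as a fixed block, 7 members were higher in BAT, against 4134 of 14820 genes. By group mean, the order for Acly was KO-labelled gWAT (8.80), BAT Adipo-Pgam1 KO (8.36), BAT controls (7.88) and gWAT controls (6.00), and each neighbour overlapped the next. For Mlxipl the order was BAT Adipo-Pgam1 KO (6.24), BAT controls (6.05), KO-labelled gWAT (5.86) and gWAT controls (4.32), of which the first 3 overlapped in turn and gWAT controls lay below them. Elovl6 ran from BAT controls (6.87) through BAT Adipo-Pgam1 KO (5.49) and KO-labelled gWAT (4.91), which overlapped, to gWAT controls (2.52), which did not. Fasn and Acacb were highest in BAT controls, at 10.68 and 7.27, above a range shared by the other groups.

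Genes that serve the pathway were described from lists chosen by name, also with earlier results of these data known. Of 9 genes for substrate and NADPH supply, 7 were lower and 2 higher past the threshold in BAT (median -0.65), and 3 were higher and 0 lower in gWAT (median 0.39). Beside these and the following lists stand 34% of all genes lower and 27.5% higher in BAT, and 9.99% higher and 7.85% lower in gWAT. Under the alternatives that kept every array, the lowest gWAT count was 0 for each list. Slc25a1, the carrier that exports citrate to Acly, had a change of -1.50 in BAT (SE 0.28, adjusted p = 0.00176) and of 2.03 in gWAT (SE 0.32, adjusted p = 0.00619). Its BAT arrays read 5.37 to 6.47 in controls and 3.92 to 4.84 in Adipo-Pgam1 KO mice, and its gWAT arrays 4.52 to 5.95 and 6.67 to 7.50. Acss2, which makes acetyl-CoA from acetate, had a change of -1.49 in BAT (adjusted p = 0.00651) and of 1.33 in gWAT (adjusted p = 0.0657). Its other probe differed by 2.38 in gWAT without overlap, and with the median over probes the gWAT change was 1.86 (adjusted p = 0.0260). The gWAT change passed in 5 of 22 alternatives. Me3, a mitochondrial malic enzyme, had the largest change of this list in BAT, at -1.68 (adjusted p = 6.54e-05).

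Of the genes for elongation and desaturation beyond the members, 9 of 15 tested were lower and 4 higher in BAT (median -0.39), and 6 of 14 higher and 0 lower in gWAT (median 0.26). The gWAT count was 2 to 6 with single arrays left out, at 3 without control replicate 2 or replicate 2 of the KO-labelled arrays and at 2 without replicate 1 or 3 of the latter. Fads2, the delta-6 desaturase of polyunsaturated fatty acids, rose in BAT by 3.06 (SE 0.22, adjusted p = 1.36e-05), from -2.46 to -1.59 in controls to 0.87 to 1.47 in Adipo-Pgam1 KO mice. In gWAT the difference was -0.24 (adjusted p = 0.554). Elovl3, an elongase of brown fat, rose in gWAT by 4.35 (SE 1.0, adjusted p = 0.0219). Its gWAT arrays read -4.40, -0.99, -3.97 and -6.01 in controls and 2.18, 0.16, 0.22 and -0.54 in the KO-labelled arrays. Control replicate 4, the lowest, was not well above background, and the rise was 2.75 with normexp and 6.51 with the slide as a fixed block. The call was lost with that block (adjusted p = 0.0672), by the methods' t-test (adjusted p = 0.0663) and without the filter on dim probes (adjusted p = 0.0540). It was also lost without control replicate 3 (adjusted p = 0.0511) and without replicate 1 (adjusted p = 0.0597) or 3 (adjusted p = 0.0534) of the KO-labelled arrays.

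Among 7 genes of SREBP processing, 4 were lower and 1 higher in BAT (median -0.45), where 61.5% of all genes passed. In gWAT 0 passed by limma, against 2 at an unadjusted p of 0.05, and 0 passed by the methods' t-test after adjustment, against 3 unadjusted (median 0.031). Insig1, a sterol-responsive brake on SREBP, had a change of -1.64 in BAT (SE 0.30, adjusted p = 0.00137) and of -0.56 in gWAT (adjusted p = 0.207). Mlx, the partner with which ChREBP binds DNA, changed by -1.05 in BAT (SE 0.14, adjusted p = 2.40e-04) and rose by 1.30 in gWAT (SE 0.23, adjusted p = 0.00918). It was the one gene called in either tissue among 3 tested partners and targets of ChREBP, whose medians were -0.32 and 0.17. With the slide as a fixed block the gWAT change of Mlx was 1.23 and did not pass. Of 5 nuclear receptors and USF factors, 4 were lower in BAT (median -0.75) and 2 higher in gWAT (median 0.026). Both gWAT calls were lost without control replicate 2 or 3 and without replicate 1, 2 or 3 of the KO-labelled arrays. Nr1h3, the liver X receptor that can drive Srebf1, had a change of -0.84 in BAT (adjusted p = 1.68e-04) and of -0.11 in gWAT (adjusted p = 0.700). Rxra, its partner receptor, had the largest change of this list in BAT, at -0.98 (adjusted p = 6.01e-05), and Usf2 in gWAT, at 0.62 (adjusted p = 0.0296). The other Usf2 probe differed by -0.21 in gWAT with overlapping groups, with the median over probes the change was 0.20 (adjusted p = 0.324), and the call was lost in 10 of 22 alternatives.

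Of 10 modulators of acetyl-CoA carboxylase, 6 were lower and 3 higher in BAT (median -0.48), and 4 higher and 1 lower in gWAT (median 0.38). The gWAT count of 5 became 6 without replicate 4 of the KO-labelled arrays and 1 to 3 without any other single array, at 1 without control replicate 2 or replicate 2 of the KO-labelled arrays. Mid1ip1, which binds the enzyme and favours its polymerization, rose in both tissues, by 1.94 in BAT (SE 0.18, adjusted p = 4.10e-05) and by 1.97 in gWAT (SE 0.47, adjusted p = 0.0259). Its relative Thrsp (Spot 14) changed by -1.18 in BAT (SE 0.18, adjusted p = 4.76e-04) and rose by 0.98 in gWAT (SE 0.23, adjusted p = 0.0253). Both gWAT calls were lost when some single arrays were left out, with adjusted p-values of up to 0.0667 for Mid1ip1 and 0.0698 for Thrsp. They were also lost with the slide as a fixed block, where the gWAT changes were 2.67 for Mid1ip1 and 0.66 for Thrsp. Mlycd, which breaks down malonyl-CoA, had a change of -1.57 in BAT (adjusted p = 6.15e-05) and of 0.28 in gWAT (adjusted p = 0.347).

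**Figure D4:**
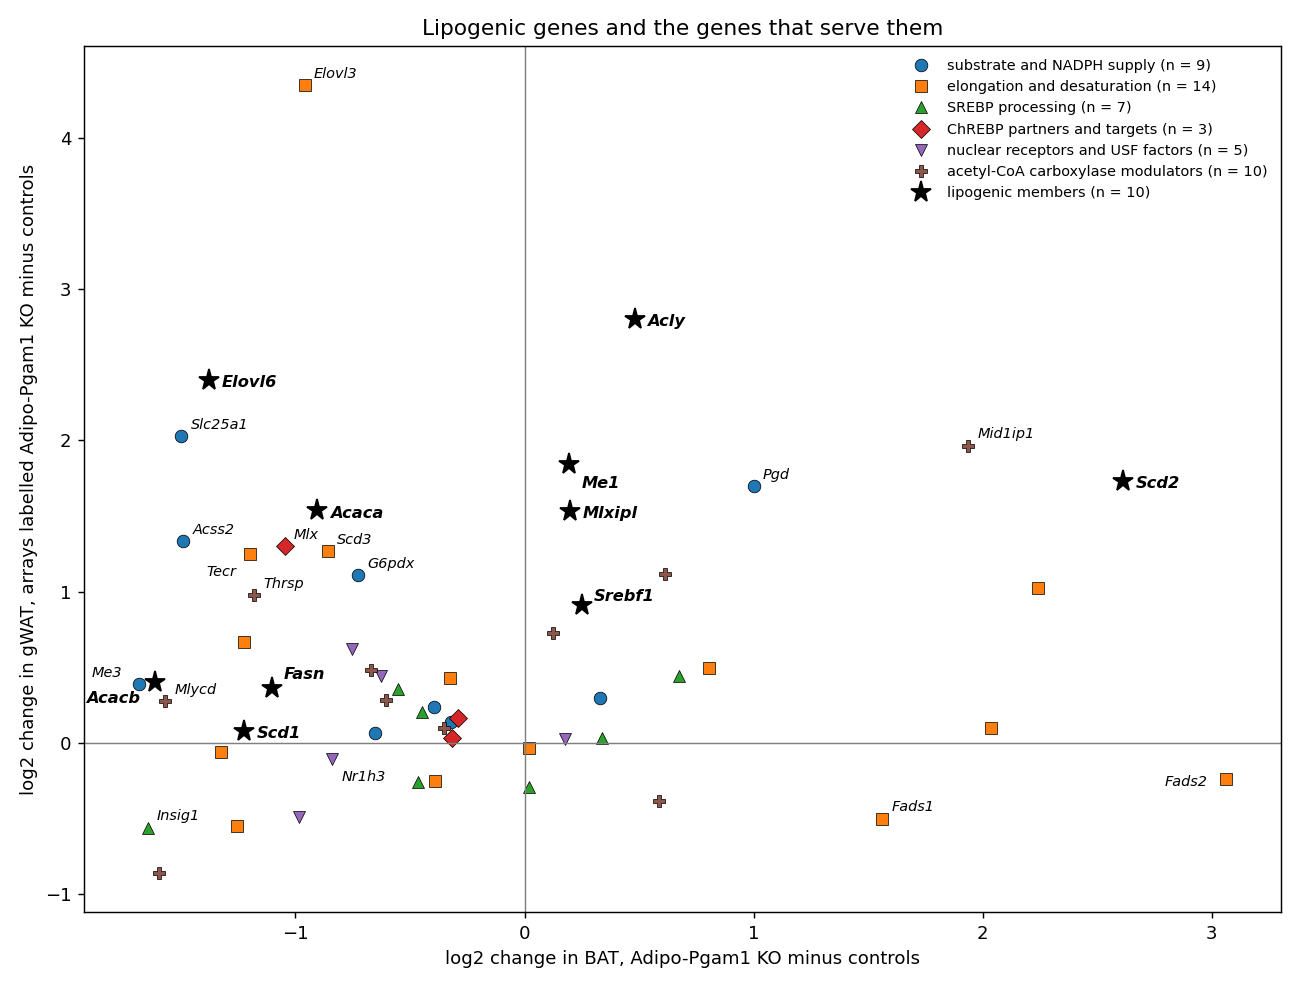
Log2 change in gWAT (vertical axis) against that in BAT (horizontal axis), arrays labelled Adipo-Pgam1 KO minus controls, for the 10 lipogenic genes (stars) and for the listed genes that serve them (other symbols, 1 per list). Elovl6, Slc25a1, Acaca, Mlx and Thrsp lie at upper left (lower in BAT, higher in gWAT), while Scd2 and Mid1ip1 lie at upper right.

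The patterns of Mlxipl, Srebf1, Scd1 and Scd2 were also set against 13609 genes tested in both tissues, as the distance between 3 log2 differences (the change in BAT, the change in gWAT, and BAT minus gWAT in controls). Hspa9, 1700007K13Rik and Psmb5 lay nearest to Mlxipl, at distances of 0.134, 0.233 and 0.283. For Scd1 the nearest genes were Sh3glb1, Bphl and Gm20063, at 0.0449, 0.0605 and 0.0898. Nearest to Srebf1 were 4930599N23Rik, Meak7 and Arpc5l, and nearest to Scd2 were Nrxn2, Arhgef2 and Ephx1. Of the other members, Acaca came closest to Mlxipl (1.11), Me1 to Srebf1 (0.961), Fasn to Scd1 (0.553) and Srebf1 to Scd2 (2.66). These distances describe 4 group means and carry no test.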

How the data were processed

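The 16 one-colour arrays hold RNA of both adipose depots (BAT, gWAT), taken from Adipo-Pgam1 KO animals and their control littermates. Arrays were grouped by their titles, and whether same-numbered BAT and gWAT arrays come from 1 mouse is not stated, so that p-values measure the spread between these samples. The authors deposited the scanner output of Agilent Feature Extraction 10.7.1.1 (named in the submitters' processing notes), whose processed signal is a background-subtracted intensity on the linear scale. The deposited output also scores each spot with marks of 0 or 1 for spots well above background, saturated or irregular. They also deposited a GeneSpring table of normalized intensities, each a ratio to the 75th percentile of its array, which differed from the same ratio of the scanner signal by at most 0.00504 (median per array, log2). The labels and the methods give different amounts of RNA per array.

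Irregular spots were left out (no spot was saturated), the rest were averaged per probe, divided by the array's 75th percentile and put on the log2 scale. Between 52.2% and 63.9% of spots were well above background, and precision is limited by the number of arrays. Of 35886 probes with a RefSeq accession, 91.9% matched a symbol. A gene was tested if its brightest probe stood well above background on every array of 1 or more groups. Genotypes were compared within a tissue, and tissues and the interaction over all 16 arrays, with limma 3.58.1 in R 4.3.3 and Benjamini-Hochberg adjustment over all genes tested. Ratios of 2 probes were compared by exact permutation tests (scipy 1.17.1). The fits were tested on simulated data. Alternatives covered background correction, normalization, scaling, the filter, the probe rule, the slide, a replicate block, the methods' t-test and leaving out each array. Positions and promoters come from RefSeq on GRCm38.p6, and the array design names another build, so that probe positions were not used.

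The named genes are all 10 members. Of each list of genes around them, Slc25a1, Acss2, Insig1, Thrsp, Nr1h3, Mlx and Mlycd are always named, with the gene of the largest change past the threshold in each tissue. Scd3 and Scd4 were named, after their values were seen, as neighbours of Scd1 and Scd2. The members and lists were chosen with earlier results of these data known.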

Additional observations from a re-analysis of the deposited data

Results flagged for a closer look

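For 9 members the change differed between the tissues (gWAT minus BAT) by the interaction test in limma. The difference was 3.77 for Elovl6 (adjusted p = 1.64e-04), 2.44 for Acaca (adjusted p = 3.56e-04), 2.32 for Acly (adjusted p = 0.00382) and 2.02 for Acacb (adjusted p = 5.31e-04). It was 1.65 for Me1 (adjusted p = 0.0137), 1.47 for Fasn (adjusted p = 0.00145), 1.34 for Mlxipl (adjusted p = 0.00243), 1.30 for Scd1 (adjusted p = 3.96e-04) and 0.67 for Srebf1 (adjusted p = 0.0185). With the slide as a fixed block it passed for Acaca, Scd1 and Elovl6. The difference for Fasn (0.36, adjusted p = 0.205) and for Srebf1 (0.19, adjusted p = 0.490) was lost under quantile normalization, and that for Mlxipl (0.38, adjusted p = 0.200) with the median over its probes. The gWAT side rests on the KO-labelled arrays, which had more Pgam1 than controls.

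The Srebf1 signal of gWAT control replicate 1 (6.01) lay apart from the other gWAT controls, which read 6.28 to 6.31. It was 1 such array among 40 groups examined, and among that many groups a gap of this relative size can arise by chance. Without that array, Srebf1 rose in gWAT by 0.85 (adjusted p = 0.0218).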

How the results depend on the processing

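Members past the threshold numbered 5 to 8 in BAT, 5 to 10 in gWAT apart from the slide as a fixed block, 7 to 9 by the interaction apart from that block, and 7 to 8 between tissues of controls. With the slide as a fixed block the counts were 0 in gWAT and 3 by the interaction, while 6 passed in BAT. Pairing by replicate number was not tested. Correlations of same-numbered deviations were -0.139 to 0.451 between genotypes and -0.149 to 0.299 between tissues. Those of different-numbered arrays were -0.309 to 0.287 and -0.242 to 0.206. The interaction and tissue tests treated the tissues as unpaired. With a replicate block 6 members passed in BAT, 6 in gWAT and 9 by the interaction, Scd2 in gWAT being lost (adjusted p = 0.0527). Over all genes, 1087 instead of 2525 passed in gWAT with that block. The Scd1 over Scd2 ratio in gWAT became -1.32 with normexp and -1.44 under quantile normalization (both exact p = 0.0857), and Acaca over Acacb became 0.59 in BAT (exact p = 0.0571) and 2.09 in gWAT with the median over probes, and 0.18 on the shared slide of BAT. Values that changed sign did not pass before the change, with the exceptions named here. In BAT, Acly became -0.11 under Actb and Rplp0 scaling and -0.11 with the slide block, Me1 -0.40 and -0.55 likewise and -0.093 with normexp, Mlxipl -0.39 and, with normexp, -0.078, and Srebf1 -0.34. In gWAT, with the slide block, Acacb became -0.48, Fasn -0.048 and Scd1 -0.070, and Acacb -0.13 with the median over probes. With single arrays left out, Scd1 ranged from -0.0072 to 0.13 in gWAT. BAT minus gWAT in controls became -0.033 for Scd1 under quantile normalization (called before), 0.20 for Srebf1 under Actb and Rplp0 scaling, and for Me1 -0.20 with normexp, -0.57 under quantile normalization, -0.047 under spike-in scaling and -0.16 to 0.43 with single arrays left out. In gWAT, Fads2 became 0.16 (median over probes), 0.28 (spike-in) and 0.54 (slide block), Nr1h3 0.016 (median centring) and 0.41 (spike-in), and Rxra 0.026 (spike-in). Spike-in scaling moved the median change of all genes by 0.51 in each tissue, and Actb and Rplp0 scaling moved it by -0.59 in BAT. Genes called in gWAT numbered 184 with the slide block, 5817 under spike-in scaling, 4040 with all 16 arrays in the fit, 1384 with median centring, 1618 by the methods' t-test and 1138 without the filter, and those called by the interaction 3265 with the slide block. The causes were not tested.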
